A study of Mus musculus with 7 samples.

Results

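H3K18La, lactylation of lysine 18 on histone H3, was compared between the P28 and the P4 mouse retina at the peaks that were read well at P4. These peaks were chosen by their P4 level alone. A peak was kept when the mean over the P4 libraries of its RPKM multiplied by its width in kilobases was 5.2 or more, which corresponds to about 20 reads over both P4 libraries. Of 108253 peaks, 4121 met this rule (the members below), and 104132 did not. RPKM is the number of reads in a peak per kilobase of its width, scaled to a normalized library size.

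The libraries came from dissociated retinas of C57BL/6J mice, collected at postnatal day 4 (P4, n = 2), day 10 (P10, n = 2) and day 28 (P28, n = 3), with no treatment or genotype difference between the groups. Fragments were recovered by CUT&Tag, where an enzyme tethered to the antibody cuts the DNA near the mark. The labels number the libraries as replicates and do not say whether retinas were pooled. The p-values therefore measure the spread between these libraries, which may be technical in part. All libraries were of batch 1 except P28 replicate 1, the single library of batch 2.

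Lactylation is a histone acylation that can be derived from lactate, and the retina turns much of its glucose into lactate even in the presence of oxygen. The H3K18La mark is found at active promoters and at enhancers. Between P4 and P28 the retina passes from the end of neurogenesis to maturity. Rods, the most numerous cells of the mouse retina, grow outer segments and form ribbon synapses in this period, while progenitors disappear. In a whole tissue, fewer cells of a type and less signal per cell cannot be told apart.

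The 2 P4 libraries were shallow, with 358971 and 295383 reads in peaks, against 199970 and 660740 at P10 and 1615969 to 8274373 at P28. The median member held 15 and 12 reads in the P4 libraries, 8 and 27 at P10, and 56 to 283 at P28. The share of the normalized library that lay in peaks was 16.3% and 17.6% at P4, 36.1% and 52.1% at P10 and 42.4% to 57.1% at P28, lower in both P4 libraries than in all later ones. The direction of a change therefore depends on the scale, and counts for the members, their positions and the gene lists are given on the deposited scale and after scaling each library to its reads in peaks. The median log2 change from P4 to P28 over all peaks was 0.68 on the deposited scale, -0.29 after scaling to reads in peaks, 0.16 after median centring and 0.09 after quantile normalization. Counting error in the reads does not cover differences in preparation between libraries.

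The promoters of rod markers carried the mark at every age. Their summed promoter level, over 8 of 9 markers with a promoter peak, was 27.5 and 30.8 RPKM at P4 and 172 to 246 RPKM at P28. For ganglion cell markers (2 of 6 with a promoter peak) it was 7.82 and 5.88 RPKM at P4 and 1.47 to 4.10 at P28. For endothelium (3 of 6) it was 8.11 and 13.1 RPKM at P4 and 4.42 to 6.76 at P28, and for retinal pigment epithelium (3 of 7) it was 17.4 and 11.4 RPKM at P4 and 24.5 to 31.6 at P28. With libraries scaled to reads in peaks the sum for rods was still higher at P28 (65.7 and 68.0 at P4, 158 to 168 at P28) and those for ganglion cells and endothelium still lower, while that for pigment epithelium turned, from 41.5 and 25.2 at P4 to 21.6 to 23.5 at P28. The sum for amacrine and horizontal cells (3 of 7) turned as well. It was 12.6 and 15.1 RPKM at P4 and 24.8 to 36.3 at P28, and after scaling 30.2 and 33.3, and 22.8 to 27.8. The lens sum (2 of 4) also turned, with 14.2 and 9.67 at P4 and 5.12 to 7.06 at P28 after scaling. The astrocyte sum (1 of 3) was lower at P28 on both scales. For bipolar cells and Mueller glia the ages overlapped after scaling. No promoter peak was found for the 5 microglia and 3 pericyte markers. The part that cell makeup has in the results below was not tested.

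The sequences below are taken from 7 peaks that the results turn on, to show what kind of DNA lies under peaks that were higher and lower at P28. Each is the stretch of 150 bases nearest the peak's centre that overlaps no annotated exon, read on the plus strand of GRCm38.p6 (RefSeq), with CpG dinucleotides in capitals. Unc119, Mybphl and Nr2e3 are promoter peaks and Tcf20 an intron peak that were higher at P28. Tmem229a is a promoter peak, and Grm3 and Cadps2 are intron peaks, that were lower.
Unc119 (promoter, chr11:78345830-78345979): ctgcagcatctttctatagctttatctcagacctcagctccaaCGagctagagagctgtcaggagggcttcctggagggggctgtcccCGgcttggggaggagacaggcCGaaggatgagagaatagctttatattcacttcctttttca
Mybphl (promoter, chr3:108364413-108364562): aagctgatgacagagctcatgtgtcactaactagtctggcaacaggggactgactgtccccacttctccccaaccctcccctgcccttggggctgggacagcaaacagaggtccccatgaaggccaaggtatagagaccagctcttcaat
Nr2e3 (promoter, chr9:59951133-59951282): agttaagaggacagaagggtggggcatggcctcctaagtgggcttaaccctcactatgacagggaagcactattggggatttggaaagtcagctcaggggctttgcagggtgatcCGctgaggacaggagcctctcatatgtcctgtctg
Tcf20 (intron, chr15:82954214-82954363): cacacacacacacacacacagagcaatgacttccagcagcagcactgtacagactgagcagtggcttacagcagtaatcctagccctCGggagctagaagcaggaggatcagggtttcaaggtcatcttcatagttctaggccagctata
Tmem229a (promoter, chr6:24956298-24956447): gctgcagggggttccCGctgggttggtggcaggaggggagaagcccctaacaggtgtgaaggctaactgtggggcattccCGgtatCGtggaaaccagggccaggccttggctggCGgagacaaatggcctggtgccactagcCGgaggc
Grm3 (intron, chr5:9622974-9623123): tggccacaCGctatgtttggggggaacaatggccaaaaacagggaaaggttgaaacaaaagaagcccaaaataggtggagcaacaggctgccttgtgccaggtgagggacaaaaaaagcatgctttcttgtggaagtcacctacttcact
Cadps2 (intron, chr6:23572254-23572403): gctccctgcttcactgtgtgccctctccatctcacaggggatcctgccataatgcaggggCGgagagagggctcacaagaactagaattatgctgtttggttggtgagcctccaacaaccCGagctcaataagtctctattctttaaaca
These windows held few CpG dinucleotides. There were 3 in Unc119, 0 in Mybphl, 1 each in Nr2e3, Tcf20 and Grm3, 2 in Cadps2 and 5 in Tmem229a. The Tmem229a window lay 572 bases from its peak's centre. That whole peak had a GC content of 65.8% and a CpG ratio, observed over expected, of 0.72, against a median of 0.24 over all members. The windows of higher and lower peaks overlapped in GC content, at 50.7% to 55.3% for the 4 higher peaks and 48.0% to 64.7% for the 3 lower peaks.

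On the deposited scale, 1684 of the 4121 members (40.9%) were called higher at P28 and 50 (1.21%) lower, with limma over all peaks at an adjusted p under 0.01. Over all 108253 peaks, 18.9% were called higher and 4.21% lower. After scaling to reads in peaks, 440 members were called higher and 816 lower, against 7.17% and 15% of all peaks. Called in the same direction on all 4 scales (deposited, reads in peaks, median centred, quantile) were 353 members higher and 50 lower, against 5.86% and 4.12% of all peaks. The counts rest on all libraries. Of the 50 lower members, 3 and 1 kept their call without P4 replicate 1 and 2, and 7 without each P28 library in turn, and of the 1684 higher members 600 and 713 did without a P4 library and 955 to 1287 without a P28 library. Every P28 library lay above both P4 libraries at 2693 members (65.3%, against 50.6% of all peaks) and below both at 642 (15.6%, against 20.7%). The P4 values behind these counts also chose the members, so nothing is read from the difference to the background. Choosing on a high P4 level favours apparent falls and works against apparent rises.

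**Figure D1:**
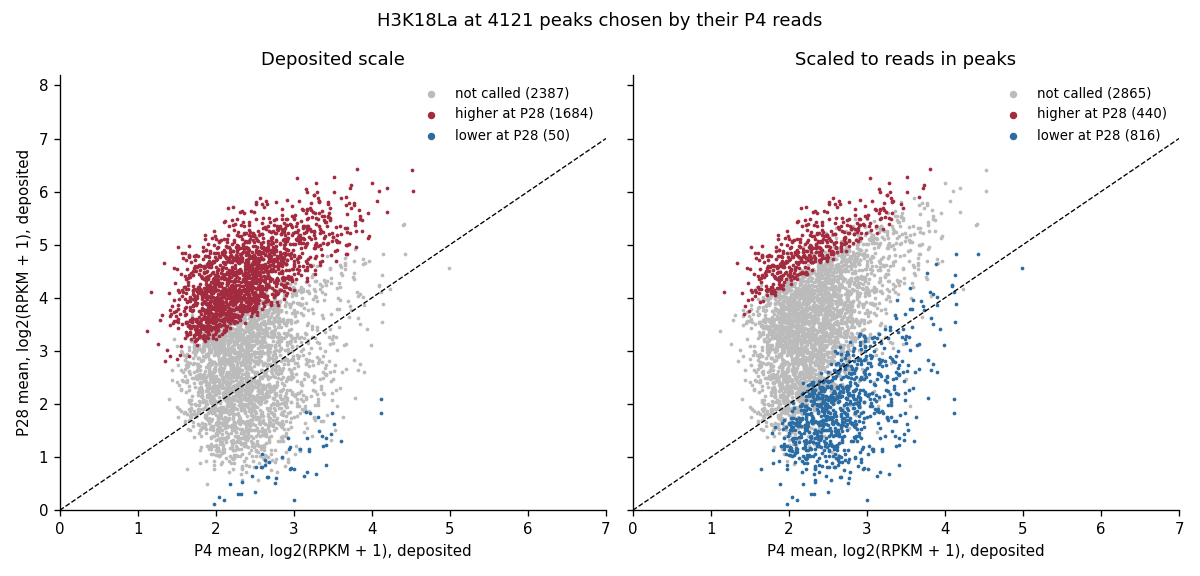
Mean RPKM over the libraries of an age, as log2(mean RPKM + 1), at P28 (vertical axis) against P4 (horizontal axis) for the 4121 members, 1 point per peak, with the diagonal of equal level dashed. Both panels show the deposited values, and the colours mark the calls on the deposited scale (left, 1684 higher and 50 lower) and after scaling to reads in peaks (right, 440 higher and 816 lower).

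A comparison that does not reuse the choosing values was made by choosing peaks on a single P4 library and comparing P28 with the other. The 4258 peaks chosen by P4 replicate 1 had a median change of 1.05 against replicate 2. Of them, 632 (14.8%) were called higher and 1 lower, where 5.21% and 1.97% of all peaks were called so in that fit. The 5178 peaks chosen by P4 replicate 2 had a median change of 1.15 against replicate 1, with 953 (18.4%) called higher and 1 lower, against 5.86% and 1.8% of all peaks. The change was positive at 77.2% and 79.0% of the chosen peaks, against 66.5% of all peaks in the fit with both P4 libraries. Over all peaks the median change was 0.62 without P4 replicate 1 and 0.67 without P4 replicate 2. These values are on the deposited scale only. With both P4 libraries the median change there was 1.04 over the members and 0.68 over all peaks. It was 1.20 and 1.11 with 0.1 instead of 1 added to RPKM, and -0.30 and -0.29 after scaling to reads in peaks. After median centring it was 0.52 and 0.16, and after quantile normalization -0.28 and 0.09. The median member also had 27 P4 reads, against 4 over all peaks. Nothing is therefore read from the difference to all peaks. These fits treat the lone P4 library as varying like the other groups.

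Within batch 1 (without P28 replicate 1), 1289 members were called higher and 7 lower. The share of all peaks called in this fit is not given, so nothing is read from these counts about the members. The median change in this fit was 1.14 over the members and 0.76 over all peaks.

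The threshold itself lay in a dense part of the data. The 200 members just inside it, with 19 to 22 P4 reads, had a median of 3.28 RPKM at P4 and 7.64 at P28. The 200 peaks just outside, also with 19 to 22 reads, had 3.102 and 5.79 RPKM. The members spanned 19 to 207 P4 reads, with a median of 27.

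Members lay at promoters more often than peaks in general. They were also wider, with a median width of 1804 bases against 757 for all peaks, and the rule counts reads over the whole width. The part that width has in the promoter share was not tested. Promoters, defined from 1000 bases before to 500 bases after a transcription start site, held 1620 members (39.3%, against 15.8% of all peaks), introns 1151, distal intergenic regions 1017, other exons 227, 3′ UTRs 88, 5′ UTRs 16, and 2 lay just past a gene's end. Of the promoter members 772 (47.7%) were called higher and 8 lower, of the intron members 462 (40.1%) and 11, and of the intergenic members 312 (30.7%) and 28. On the reads-in-peaks scale, 151 promoter members were called higher and 180 lower, and 156 and 246 intron members. In intergenic regions the counts were 89 and 326, and in other exons 27 and 47. Falls outnumbered rises in each of these classes, as they did over all peaks (7.17% higher and 15% lower). Shares over all peaks of each class are not given on this scale. In 3′ UTRs the counts were 15 and 14, and in 5′ UTRs 2 and 2. Over all promoter, intron and intergenic peaks, 31.3%, 19.5% and 11.8% were called higher on the deposited scale. The shares called lower were 0.834%, 3.01% and 7.97%, and both stood in the same order as among the members. The median change was 1.25 at promoters, 0.98 in introns and 0.53 in intergenic regions. After scaling to reads in peaks these medians were -0.08, -0.36 and -0.82. The promoter median was the highest of these 3 on both scales, while the share called higher after scaling to reads in peaks was 9.32% at promoters, 13.6% in introns and 8.75% in intergenic regions.

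The promoter excess was then measured within each library, which no scaling of a whole library can move by much. The median log2(RPKM + 1) of promoter members minus that of the other members was -0.02 and -0.08 in the P4 libraries, -0.21 and -0.56 at P10, and 0.55, 0.33 and 0.36 at P28. All 3 P28 libraries lay above both P4 libraries, while the P10 libraries lay below them. The mean was 0.41 ± 0.12 (SD, n = 3) at P28 and -0.05 ± 0.04 (SD, n = 2) at P4, a difference of 0.46. The P4 values also chose the members, and the threshold kept 9.45% of promoter peaks against 2.53% of intron and 2.87% of intergenic peaks, so this difference is a description with no test. It was 0.44 to 0.46 on the other 3 scales.

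**Figure D2:**
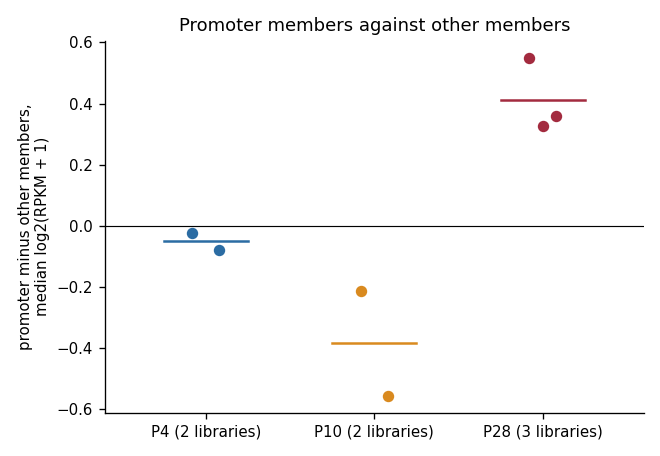
Median log2(RPKM + 1) of the 1620 promoter members minus that of the other 2501 members, 1 point per library, with the mean of each age as a line. The P28 libraries sit at 0.33 to 0.55, the P4 libraries just under 0 and the P10 libraries at -0.21 and -0.56.

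As a share of all peak reads, the members took 20.0% and 19.6% at P4 and 19.3% to 19.8% at P28, and 27.1% and 26.5% at P10. The P10 libraries, which had no part in the choice, both lay above all P28 libraries (26.8% ± 0.36, SD, n = 2, against 19.6% ± 0.25, SD, n = 3, exact two-sided permutation p = 0.2, the smallest possible). For the members called higher the median level was 3.98 RPKM at P4, 18.9 at P10 and 19.7 at P28. For those called lower it was 6.77, 3.53 and 0.85 RPKM, so that at P10 the median stood between the other ages.

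The promoter peaks with the largest rises belonged to genes of varied function, among them photoreceptor and synaptic genes. By the naming rule these were Mybphl, Gdpd5, Fam53b, Anp32a, Sema3f, Mcf2l, Unc119, Ddit4, Syngr1 and Stom, whose changes ran from 3.18 down to 2.96. They were picked for their size, so no test is given for them. All 10 were called higher on the deposited scale, and all but Syngr1 on all 4 scales. Sema3f lost its call without P4 replicate 1 (adjusted p 0.012, limma).

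At Mybphl (chr3:108363558-108365418), which encodes a relative of the muscle myosin-binding proteins, the level was 3.17 and 3.85 RPKM at P4, 38.8 and 47.0 at P10, and 35.0, 40.3 and 44.7 at P28. The change was 3.18 ± 0.25 (SE). Its P10 and P28 libraries overlapped and all lay far above P4. Unc119 (chr11:78344743-78347067) encodes a lipid-binding chaperone that carries transducin in photoreceptors, and its level was 2.54 and 2.05 RPKM at P4, 31.8 and 29.8 at P10, and 23.7, 27.0 and 28.8 at P28. The change was 3.06 ± 0.25 (SE), with the P10 libraries slightly above the P28 libraries. Ddit4 (chr10:59951371-59952725) encodes a stress-induced inhibitor of mTOR signalling. It had 4.02 and 3.96 RPKM at P4, 24.0 and 36.1 at P10, and 37.9, 37.5 and 45.6 at P28, a change of 3.04 ± 0.26 (SE). Here every P28 library lay above both P10 libraries as well. Syngr1, which encodes a synaptic vesicle membrane protein, was at 1.21 and 4.77 RPKM at P4, 24.1 and 25.6 at P10 and 26.1 to 29.2 at P28. Its P4 libraries differed most among these genes. Sema3f encodes a secreted semaphorin that repels axons, and Anp32a an acidic nuclear phosphoprotein. They had 1.59 and 3.14 RPKM, and 2.35 and 2.81 RPKM, at P4, and 21.8 to 31.7 and 25.5 to 33.2 RPKM at P28.

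Within genes, large rises were in introns of Tcf20, Glis1 and Nav1 and in an exon of Crispld2, from 3.52 down to 3.29, and all 4 were called higher on all 4 scales. Tcf20 encodes a transcriptional coregulator, Glis1 a zinc finger transcription factor and Nav1 a microtubule-associated protein of neurons. In Tcf20 (chr15:82953558-82955020) the level was 2.80 and 4.49 RPKM at P4, 29.6 in both P10 libraries, and 52.5, 48.9 and 52.7 at P28. The groups did not overlap, and P10 lay between the other ages. In Nav1 it was 2.97 and 3.64 RPKM at P4, 32.2 and 45.0 at P10 and 36.7 to 50.4 at P28.

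On the deposited scale 8 promoter members were called lower, against 180 after scaling to reads in peaks. Of these 8, 7 belonged to noncoding RNA genes (lincRNA or snoRNA) and 1 to a protein-coding gene, Tmem229a (chr6:24954829-24956774). Its level was 9.34 and 7.05 RPKM at P4, 5.57 and 5.67 at P10, and 2.16, 2.59 and 2.93 at P28, a change of -1.36 ± 0.32 (SE). The 3 ages did not overlap and stood in order of age.

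The falls named within genes lay in a 3′ UTR of Gm11232 and in introns of Grm3, Armc4, Nhsl1 and Cadps2. All 5 were called lower on all 4 scales. Leaving out either P4 library ended the call at these 5 peaks and at Tmem229a, where the changes then ran from -2.70 to -1.18. The replicate block ended it at all of these but Armc4. A pseudocount of 0.1 did so at Grm3, Cadps2 and Tmem229a, and leaving out any P28 library at Grm3, Nhsl1, Cadps2 and Tmem229a. Grm3 encodes a metabotropic glutamate receptor, and its intron peak (chr5:9622415-9623684) had 5.01 and 6.58 RPKM at P4, 0 and 1.24 at P10, and 0, 0.581 and 0.680 at P28, a change of -2.28 ± 0.49 (SE). A count of 0 reads in a library allows up to 3 reads, counting error only. Cadps2 encodes a priming factor for dense-core vesicles. Its intron peak (chr6:23571952-23572707) had 8.41 and 7.89 RPKM at P4, 0 in both P10 libraries, and 1.39, 0.488 and 1.599 at P28. Armc4, which encodes a protein needed to dock dynein arms in motile cilia, and Nhsl1, which encodes a regulator of cell migration, fell by 2.21 and 2.16 on the log2 scale. Gm11232 is a predicted protein-coding gene on chromosome 4. Its peak had 6.43 and 9.09 RPKM at P4 and 0.285 to 0.869 at P28. It was also the nearest gene of 2 intergenic peaks called lower, at chr4:71724956 and chr4:71764775 (start positions). These lay at 31731 and -6810 bases from its start site.

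**Figure D3:**
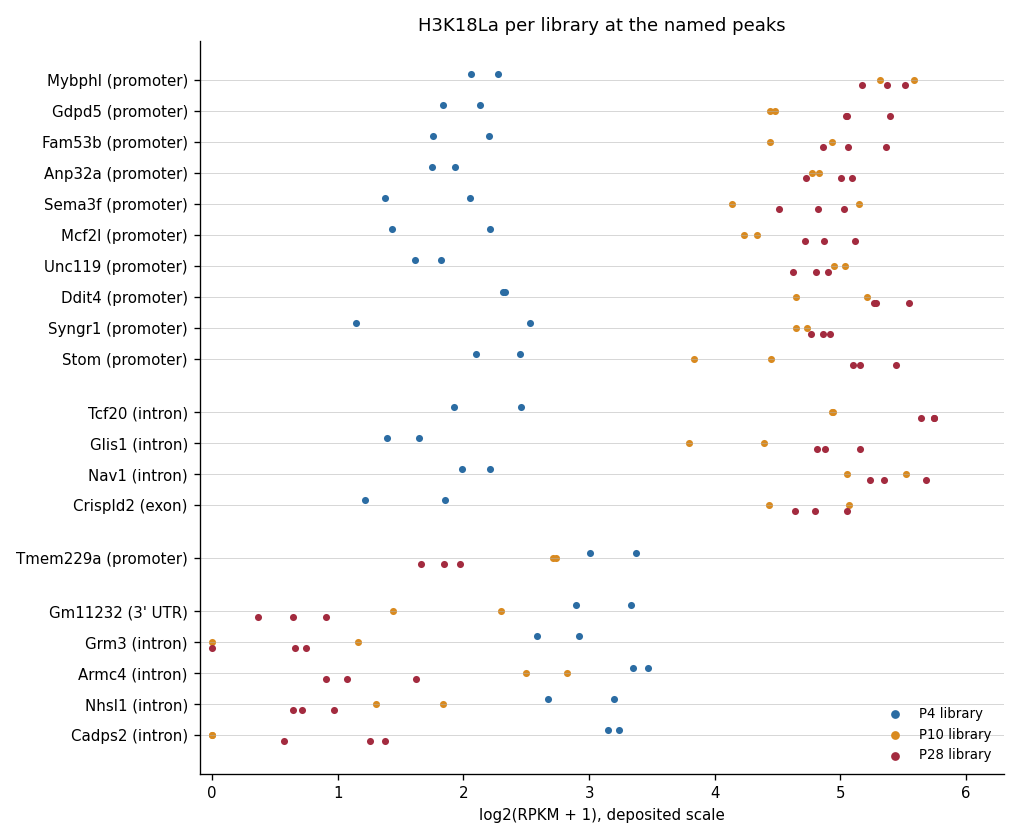
Level of the mark, log2(RPKM + 1) on the deposited scale, in each of the 7 libraries at the peaks named for the largest changes, from top to bottom promoter rises, rises within genes, the promoter fall and falls within genes. Each point is a library, coloured by age. At all of these peaks the P4 and P28 libraries do not overlap, as the naming rule required.

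Genes of rod phototransduction and the outer segment formed the list with the highest median change. In reading this and the following lists, 40.9% of all members were called higher and 1.21% lower on the deposited scale, and 10.7% and 19.8% after scaling to reads in peaks, so list shares near these, such as those of axon guidance and Mueller glia genes, are no result about the list. Of its 13 member peaks (12 genes), 12 were called higher and 0 lower, with a median of 2.28 on the deposited scale. The median stayed above 0 on the other scales, at 0.93 after scaling to reads in peaks, where 5 were called higher and 1 lower. Over all members the median was 1.04 and -0.30 on these scales. Grk1, the rhodopsin kinase gene, was the gene of this list read most deeply at P4, with 7.34 and 7.76 RPKM at its promoter, 50.5 and 44.4 at P10, and 29.0, 31.5 and 34.3 at P28. The change was 1.93 ± 0.23 (SE). The peak was called higher on the deposited scale, and its P10 libraries were the highest. Its call was lost after scaling to reads in peaks (change 0.49) and after quantile normalization (0.09). Sag, which encodes the arrestin that shuts off the photoresponse, rose from 6.39 and 8.88 RPKM to 41.4, 50.4 and 57.3. Pde6b, a subunit of the cGMP phosphodiesterase, had 2.17 and 1.75 RPKM at P4 and 11.7 to 18.5 at P28, and Rgs9, which speeds the shut-off of transducin, 1.17 and 2.85 RPKM and 13.03 to 22.7. The exception was an intron peak of Impg1, a gene of the matrix between photoreceptors, which had 5.12 and 5.60 RPKM at P4 and 0.493 to 1.46 at P28 and was not called. The Impg1 promoter peak was called higher, from 3.30 and 5.29 RPKM at P4 to 21.6, 24.0 and 29.2.

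Of the 16 member peaks of photoreceptor transcription factors, 15 were called higher and 0 lower (median 2.08, and 0.73 after scaling to reads in peaks, where 5 were called higher and 0 lower). Nr2e3, which represses cone genes in rods, had the most P4 reads (130) of all promoter members of protein-coding genes. Its level was 6.57 and 7.86 RPKM at P4, 69.4 and 59.3 at P10, and 30.2, 32.8 and 36.0 at P28. It was highest at P10 in both libraries, and the change from P4 to P28 was 2.05 ± 0.24 (SE). The largest change at a gene's leading peak was in an intron of Prdm1, a repressor that separates photoreceptor from bipolar fate. It had 2.75 and 1.91 RPKM at P4, 16.7 and 28.3 at P10, and 20.3, 23.9 and 24.6 at P28. Esrrb, a nuclear receptor of rods, had 2 intron members. They had 2.30 and 4.78 RPKM, and 2.59 and 6.80 RPKM, at P4, and 11.4 to 19.7 and 45.7 to 63.1 RPKM at P28. Rorb, needed for rod fate, had the single uncalled peak, with a change of 1.81.

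Cone genes were few among the members. Of 4 peaks, 2 were called higher, Gnb3, which encodes the β subunit of cone transducin, and Kcnv2, which encodes a photoreceptor potassium channel subunit. With libraries scaled to reads in peaks, 0 were called higher and 1 lower. Gnb3 had 4.08 and 6.63 RPKM at P4, 50.1 and 63.0 at P10, and 23.4, 28.9 and 27.3 at P28. As at Nr2e3 and Grk1, its P10 libraries were the highest.

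Ribbon synapse genes had 12 of 19 member peaks called higher and 0 lower (median 2.10, and 0.91 after scaling to reads in peaks, where 7 were called higher and 1 lower). Ctbp2, whose ribbon isoform builds the synaptic ribbon, had 2.12 and 2.09 RPKM at its promoter at P4 and 19.7, 22.2 and 24.9 at P28. Lrit1, a photoreceptor synapse protein, rose from 5.10 and 5.02 RPKM to 38.3, 42.7 and 52.2. Cacna2d4, a calcium channel subunit of photoreceptor terminals, was split. Its most deeply read promoter peak rose from 10.6 and 13.9 RPKM to 47.8, 45.7 and 57.7, a call lost without either P4 library (adjusted p 0.029 and 0.018, limma), after scaling to reads in peaks (change 0.48) and after quantile normalization, while another promoter peak and an exon peak were uncalled, at 0.61 and 0.06. Among genes of synaptic vesicles and release, 14 of 24 peaks were called higher and 1, in Cadps2, lower. Scaled to reads in peaks, 2 were called higher and 4 lower. The median was 1.66, and -0.01 after quantile normalization. Syt1, the calcium sensor of vesicle fusion, was read most deeply, at 11.98 and 7.86 RPKM at P4 and 40.02, 51.1 and 50.6 at P28. The Syt1 call was lost after scaling to reads in peaks (change 0.70) and after quantile normalization (0.32).

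Among nuclear receptors and their coactivators 15 of 19 peaks were called higher and 0 lower (median 1.91, and 0.59 after scaling to reads in peaks, where 6 were called higher and 1 lower). Circadian clock genes had 8 of 10 called higher (median 2.03, and 0.61, with 2 called higher and 0 lower). Both lists shared Rora, whose promoter rose from 3.87 and 2.14 RPKM to 20.4, 22.7 and 25.3. Thrb, the thyroid hormone receptor gene of cone development, had 10.5 and 9.93 RPKM at P4 and 33.1 to 42.1 at P28. The Thrb change of 1.73 was 0.26 after scaling to reads in peaks and -0.21 after quantile normalization, and its call was lost without either P4 library. Within Rxra, the gene of a shared receptor partner, 1 intron peak rose from 2.04 and 4.16 RPKM to 29.4, 29.4 and 37.6, and another was uncalled at 5.06 to 6.66 RPKM at P28.

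Metabolic genes were mostly read at promoters. In glycolysis and lactate handling, 6 of 8 peaks were called higher and 0 lower (median 1.80, and 0.55 after scaling to reads in peaks, where 1 was called higher and 0 lower). Aldoa and Ldha, which the study shows as examples of such genes, had no member. Hk1, the hexokinase gene, had an intron peak at 10.4 and 12.8 RPKM at P4, 59.3 and 71.9 at P10, and 34.5, 38.9 and 43.7 at P28. It was highest at P10. The Hk1 change of 1.67 was 0.19 and not called after scaling to reads in peaks and -0.26 after quantile normalization, and its call was lost without either P4 library (adjusted p 0.016 and 0.010, limma). The Eno1 promoter, of the enolase gene, rose from 4.85 and 3.18 RPKM to 27.2, 25.8 and 27.4. Mpc2, a subunit of the mitochondrial pyruvate carrier, had 6.88 and 5.81 RPKM at P4 and 26.0 to 33.2 at P28. In the tricarboxylic acid cycle list 4 of 6 peaks were called higher (1 higher and 2 lower after scaling to reads in peaks), among them Idh1 (change 2.16 ± 0.28, SE). Me1, the cytosolic malic enzyme gene, had 1 intron peak called higher, with a change of 2.68 ± 0.28 (SE). Another intron peak of Me1 had 7.30 and 8.28 RPKM at P4 and 2.49, 3.096 and 2.395 at P28 and was not called. Oxidative phosphorylation had 1 member peak, at Ndufa11, which was uncalled, and proteasome and mitochondrial ribosome genes had none.

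Among genes that act on chromatin, histone methylation, Polycomb and BAF genes had 12 of 21 peaks called higher and 0 lower (median 1.49), and histone acyltransferases, deacylases and readers 9 of 14 and 0 (median 1.49). After scaling to reads in peaks these medians were 0.28 and 0.12, with 4 and 0 peaks, and 1 and 1 peaks, called higher and lower. Phc2, a Polycomb subunit gene, changed by 2.94 ± 0.32 (SE) at its promoter, from 2.02 and 3.23 RPKM to 23.1, 27.0 and 29.4. Kat6b, an acetyltransferase gene, rose from 7.46 and 6.68 RPKM to 33.0, 27.2 and 33.3. Hdac2, a deacetylase gene and 1 of the 5 promoters with the most P4 reads, was uncalled. It had 14.5 and 14.8 RPKM at P4, 23.0 and 26.6 at P10, and 27.2, 19.7 and 27.4 at P28, a change of 0.70 ± 0.25 (SE) on the deposited scale and -0.78 after scaling to reads in peaks. The other 4 of those promoters, Nr2e3, Fam110a, Klf10 and Trib1, were called higher, with changes of 2.05, 1.73, 1.81 and 1.49. On the reads-in-peaks scale these were 0.61, 0.31, 0.40 and 0.08 and not called, and Fam110a and Trib1 turned to -0.03 and -0.17 after quantile normalization. Calls at Klf10 and Trib1, as at Kcnv2, Ebf1 and Ebf3, were lost without either P4 library, and that at the Rora promoter without P4 replicate 2.

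Eye field and progenitor factors were among the lists with a median below 0. Of 10 member peaks in 7 genes, 0 were called higher and 0 lower, with a median of -0.28 on the deposited scale and -1.57 after scaling to reads in peaks, where 5 were called lower. By limma, none of the 10 passed in either direction on the deposited scale, and the values overlapped between ages at 4 of them. Gli2, a transcription factor of Hedgehog signalling, was the gene of this list read most deeply. Its intron peak with the most reads had 7.51 and 8.42 RPKM at P4, 13.1 and 28.9 at P10, and 4.44, 6.54 and 6.82 at P28, and was highest at P10. Its promoter had 5.17 and 3.74 RPKM at P4, 1.03 and 4.94 at P10, and 3.58, 4.69 and 5.60 at P28, so the ages overlapped. Gli3, of the same pathway, had 4.47 and 3.13 RPKM at P4 and 0.344, 1.33 and 1.47 at P28 at its promoter, a change of -1.26 ± 0.44 (SE). Sox4, a factor of early neurons, was at 4.004 and 5.03 RPKM at P4 and 3.02 to 4.70 at P28. Dach1, an eye field gene, had the largest change of this list, 1.56 ± 0.40 (SE), with 4.59 and 2.48 RPKM at P4 and 10.6 to 14.3 at P28. Rax, an eye field gene that photoreceptors and Mueller glia also express, was held in the lists of those cells and is not among these 10 peaks. Its promoter was called higher on all 4 scales, with 3.47 and 2.16 RPKM at P4, 30.4 and 27.5 at P10, and 21.0 to 27.6 at P28, and it had the largest change of the Mueller glia list, 2.71 ± 0.27 (SE).

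Extracellular matrix and integrin genes had 1 of 15 peaks called higher, at Sparc, and 0 lower, with a median of -0.67 (-1.97 after scaling to reads in peaks, where 8 were called lower and 0 higher). The largest change was in an intron of Reln, the gene of the secreted protein reelin. It had 11.2 and 9.04 RPKM at P4, 0 and 4.48 at P10, and 1.49, 1.75 and 1.31 at P28, a change of -2.14 ± 0.62 (SE), and was not called. Potassium channel genes had 7 of 28 called higher and 0 lower (median -0.13), neurotransmitter receptors 5 of 31 and 1 (0.13), and calcium and sodium channels 5 of 22 and 0 (0.38). After scaling to reads in peaks the medians of these 3 lists were -1.43, -1.14 and -0.96, with 10, 10 and 7 peaks called lower and 2, 3 and 0 called higher. The medians of the receptors and of the calcium and sodium channels were below 0 on each of the other 3 scales. The intron peak of Grm4, a glutamate receptor of presynaptic terminals, had 4.79 and 9.90 RPKM at P4 and 49.97, 54.1 and 63.4 at P28, a change of 2.83 ± 0.31 (SE).

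**Figure D4:**
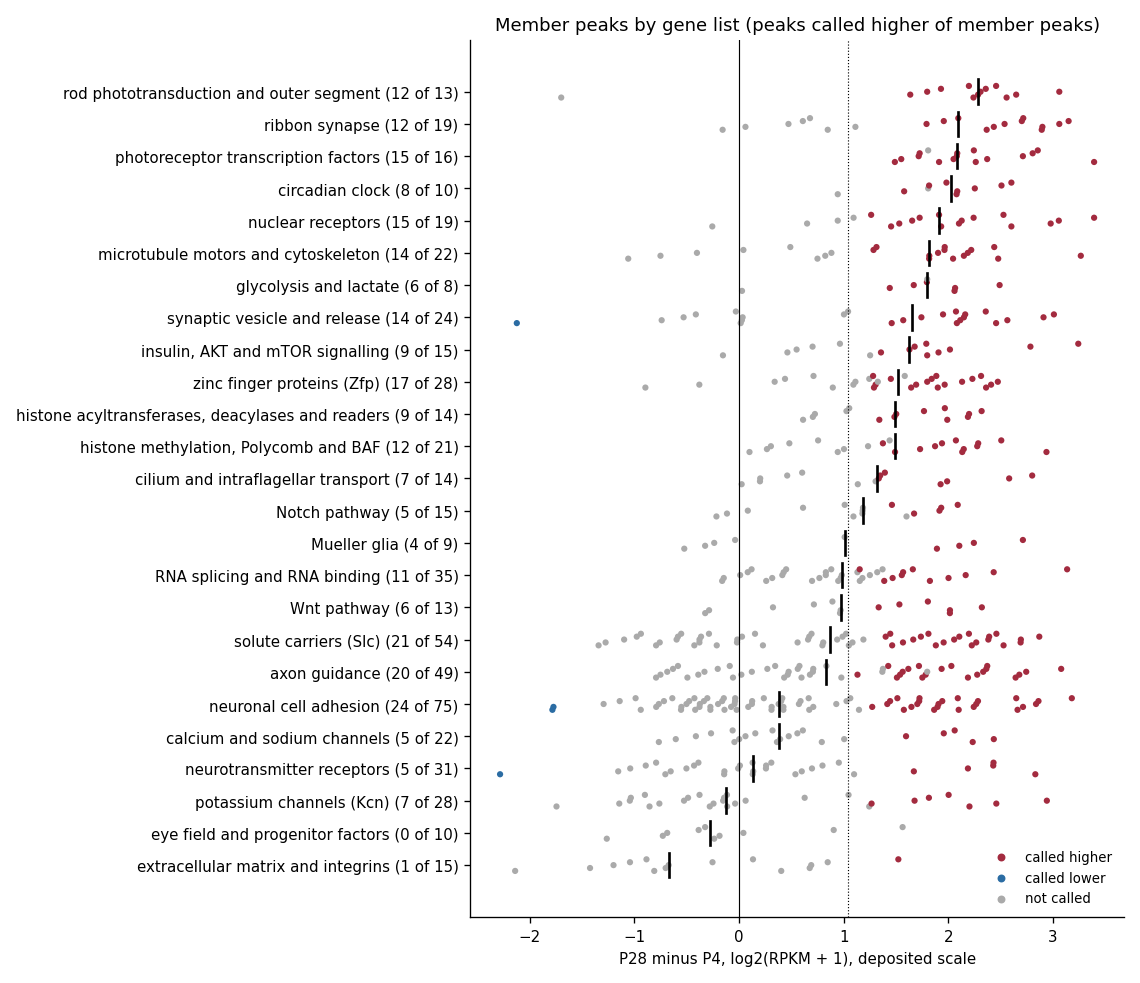
Change from P4 to P28 in log2(RPKM + 1), deposited scale, of each member peak (point) in the gene lists with 8 or more member peaks, ordered by their median (bar), with the number called higher of the member peaks in brackets. The dotted line is the median of all members (1.04). The medians of the rod, ribbon synapse and photoreceptor factor lists lie furthest to the right, and those of the progenitor and extracellular matrix lists furthest to the left.

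Genes of the inner retina and of glia gave mixed values. Of 4 amacrine and horizontal cell peaks, 3 were called higher and 0 lower (median 1.91). After scaling to reads in peaks, 0 of them were called higher and 1 lower (median 0.51). Of 9 Mueller glia peaks 4 (44.4%) were called higher and 0 lower (median 1.01, and -0.35 after scaling to reads in peaks, where 1 was called higher and 2 lower, and after quantile normalization). Slc1a2, a glutamate transporter gene, rose at its promoter from 9.29 and 6.57 RPKM to 34.5, 36.7 and 39.8. Glul, the glutamine synthetase gene of Mueller glia, rose from 1.97 and 3.46 RPKM to 12.6, 10.5 and 14.7. Vim, an intermediate filament gene, had 2.64 and 3.47 RPKM at P4 and 1.27 to 2.14 at P28 and was not called. Of the 4 peaks of ganglion cell genes, 2 were called higher (Ebf1 and Ebf3, which amacrine cells also express) and 1 lower (0 and 1 after scaling to reads in peaks). That peak lay in an intron of Myt1l, a neuronal zinc finger factor, with 6.68 and 9.26 RPKM at P4 and 1.07, 1.96 and 1.69 at P28. The 1 bipolar cell member, in an intron of Trpm1, had a change of 0.85 ± 0.41 (SE) and was not called. Microglia and blood, vascular, astrocyte and lens markers had no member.

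Neuronal adhesion genes held the most members of any list, 75 peaks in 29 genes, and varied widely. Of these, 24 were called higher and 2 lower, in introns of Tenm4 and Cdh13, with a median of 0.38. After scaling to reads in peaks 7 were called higher and 23 lower (median -0.97). Axon guidance genes had 20 of 49 (40.8%) called higher and 0 lower (median 0.83, and -0.53 after scaling to reads in peaks, where 6 were called higher and 7 lower). The adhesion median was also below 0 after median centring (-0.14) and quantile normalization (-0.97), and the axon guidance median after quantile normalization (-0.28) but not after centring (0.31). Tenm4, a teneurin that guides neuronal wiring, had 9 members with 0 called higher and 1 lower, and changes from -1.78 to 0.12, and 7 were called lower after scaling to reads in peaks. Nrxn3, a presynaptic neurexin, had 6 members, none called by limma, from -0.56 to 0.66, and 2 of them were called lower after scaling to reads in peaks. Dscaml1, an adhesion molecule that spaces retinal neurons, had 8 of 11 called higher, from 0.83 to 2.74. Cdh4, a cadherin of the retina, had 9 of 16 called higher, from -0.14 to 3.18, and Ntm 7 of 12, from -0.42 to 2.86.

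Of 2259 genes with a member, 445 had 2 or more. On the deposited scale 1071 genes had a peak called higher, 22 a peak called lower and 0 both. On the reads-in-peaks scale 8 genes had peaks called in both directions. Such counts are not given over all 19392 genes with a peak, so nothing is read from them about the members. Gdpd5, which encodes an enzyme that promotes neuronal differentiation, had 5 of 5 members called higher on all 4 scales, Camta1, a calmodulin-binding transcription activator, 6 of 6 on the deposited scale and 4 on all 4 scales, and Xylt1, an enzyme that starts proteoglycan chains, 5 of 7 and 4. Celf4, an RNA-binding protein of neurons, had the most members, 21, with 4 called higher.

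**Figure D5:**
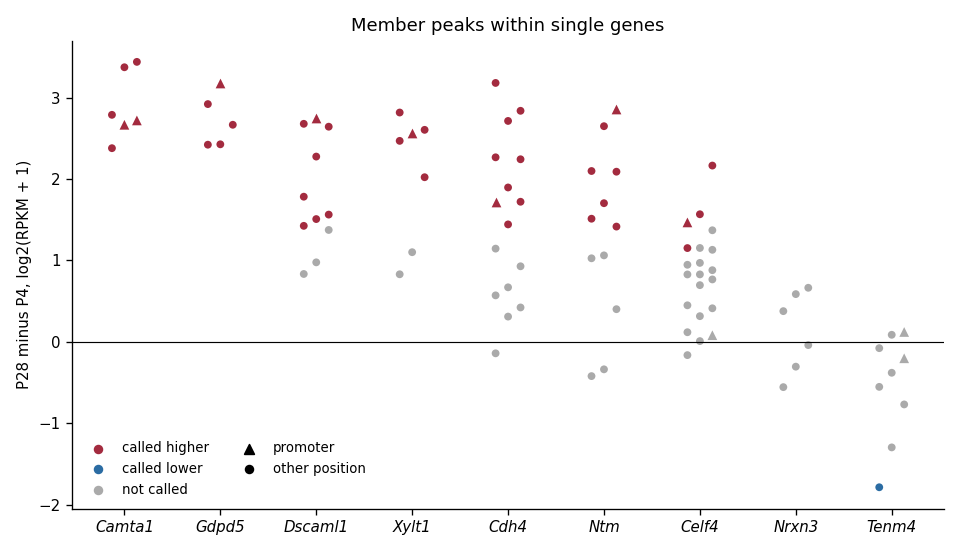
Change from P4 to P28 in log2(RPKM + 1), deposited scale, of every member peak of 9 genes with several members, with promoter peaks as triangles and other peaks as circles. All peaks of Camta1 and Gdpd5 were called higher, those of Cdh4 run from -0.14 to 3.18, and no peak of Nrxn3 or Tenm4 was called higher.

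What the called members shared beyond their change was looked for in sequence and position. The 50 lower members, of which at most 7 kept their call without 1 library, were intergenic in 56% and at promoters in 16%, against 18.5% and 45.8% of the higher members, 28.4% and 35.2% of the uncalled members, and 32.8% and 15.8% of all peaks, so their promoter share was that of peaks in general. Their median GC content was 49.7% and their CpG ratio, observed over expected, 0.14, against 53.7% and 0.26 for the higher members and 49.6% and 0.20 for all peaks. These values are for calls on the deposited scale. The 353 members higher on all 4 scales were at promoters in 33.1%, with a GC content of 52.3% and a CpG ratio of 0.22. Their promoter share and CpG ratio lay below those of the uncalled members (35.2% and 0.23). For the 10 protein-coding genes with a lower member outside the promoter, the median gene length was 317 kb, against 105 kb for the 377 genes with such a higher member and 147 kb for the 504 with an uncalled one. Over all peaks it was 44.9 kb (8854 genes). The called groups overlapped widely, since the interquartile range of GC content ran from 47.0% to 52.7% for lower and from 49.9% to 59.3% for higher members. Widths differed too, with medians of 1274.5 and 1944.5 bases.

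Short motifs were counted in the central 300 bases of each peak of at least that width, on both strands, so that width had no part in them. TAATCC, the core bound by OTX-type homeodomain factors such as those of photoreceptors, was present in 13.9% of the 1684 higher members, 2.0% of the 50 lower members, 8.34% of the 2387 uncalled members and 11.5% of all 105506 peaks. Outside promoters it was in 18.8% of higher and 10.5% of uncalled members, and at promoters in 8.16% and 4.40%. The GC box GGGCGG was in 53.4% of promoter members and 9.32% of other members, and at promoters in 52.3% of higher and 54.8% of uncalled members. The nuclear receptor element AGGTCA was in 19.7% of higher, 22% of lower and 19.4% of uncalled members and 21.1% of all peaks. Repeated elements were not masked, so any matches that lie in them are counted in these shares. These matches describe the sequence and do not show that a factor was bound.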

How the data were processed

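The deposited table gives RPKM per consensus peak and library. The authors prepared CUT&Tag libraries, aligned reads and called peaks with the nf-core/cutandrun workflow and MACS, normalized library sizes with csaw on 10000-base windows, and annotated peaks with ChIPseeker 1.34.1 (submitters' processing notes), with promoters from 1000 bases before to 500 after a start site. The label's protocol names pA-MNase and the study's methods pA-Tn5. The deposited differential table holds the authors' fold changes and FDR values and was not used.

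RPKM was analysed as log2(RPKM + 1) with limma 3.58.1 (R 4.3.3) over all 108253 peaks and 7 libraries, with Benjamini-Hochberg adjustment and a threshold of 0.01. Reads per peak were recovered from RPKM, width and library size, for description and for the voom alternative. Exact permutation tests used SciPy 1.17.1 (Python 3.11.15). The fits were tested on simulated data with known changes. No age difference in the share of reads in peaks was simulated, so that test does not bear on the choice of scale.

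The members and gene lists were chosen with earlier results of these data known. Genes were named by rule, over protein-coding genes with 1 peak a gene, the one with the most P4 reads in that class: up to 10 largest promoter rises and falls and 5 within genes (called, libraries not overlapping, 1 gene left out as not reported here), the most deeply read and most changed gene of each list, and the 5 promoters with the most P4 reads. Other genes of the lists were named after their values were seen. Alternatives were other pseudocounts, scalings, thresholds, filters, voom weights, a fit without P10, a replicate block and leaving out each library.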

Additional observations from a re-analysis of the deposited data

How the results depend on the processing

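Counts of members called higher and lower were 1684 and 50. They were 1467 and 12 with a pseudocount of 0.1, 1679 and 75 with 5, 2111 and 281 with voom weights, 440 and 816 scaled to reads in peaks, 1416 and 267 after median centring, 408 and 868 after quantile normalization, 2042 and 170 without P10, 1666 and 42 with an RPKM filter of 1, and 2144 and 187 at an adjusted p of 0.05. Other read thresholds give other sets of peaks, with 4969 and 250 called at 10 or more P4 reads and 343 and 13 at 40 or more. The sizes of these sets are not given, nor are the shares of all peaks called under most alternatives. The counts therefore show only how the calls move with the processing. Peaks chosen by 1 P4 library and compared with the other gave 632 and 1, and 953 and 1. Leaving out 1 library gave 602 to 1289 higher and 1 to 7 lower: 602 and 3 without P4 replicate 1, 716 and 1 without P4 replicate 2, 1289 and 7, 955 and 7, and 989 and 7 without P28 replicate 1, 2 and 3. The replicate block gave 1366 and 14 and a median of 0.96. Correlations of same-numbered deviations were 0.039, -0.0004 and 0.043, so the numbers were not read as pairing. The median change (1.04) was 0.66 with a pseudocount of 5, 0.52 after centring, -0.30 scaled to reads in peaks, -0.28 after quantile normalization and 0.67 with 10 reads, and 0.96 to 1.14 without 1 library.

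Of the 63 called among 83 named peaks, 56 kept their direction under all alternatives run, and 22 were called under each. Reversed scaled to reads in peaks were Celf4 -1.21, Col18a1 -0.68, Gli2 -1.28, Hdac2 -0.78, Inpp4b -0.94, Kdm4c -0.53, Maml3 -0.75, Ndufa11 -0.47, Rab28 -0.11, Rgr -0.15, Slc24a4 -0.0108, Tle1 -1.04, Trpm1 -0.33, Tubb2b -1.21 and Whrn -1.29. After quantile normalization they were Celf4 -1.01, Col18a1 -0.79, Ebf3 -0.0047, Fam110a -0.0268, Gli2 -1.19, Hdac2 -1.35, Hk1 -0.26, Inpp4b -1.15, Kdm4c -1.02, Maml3 -0.77, Ndufa11 -0.39, Rab28 -0.29, Rgr -0.10, Slc24a4 -0.31, Thrb -0.21, Tle1 -1.11, Trib1 -0.17, Tubb2b -0.93 and Whrn -1.17. After centring they were Celf4 -0.44, Gli2 -0.48, Inpp4b -0.0609, Tle1 -0.20, Tubb2b -0.48 and Whrn -0.50, and with voom Celf4 -0.0014. With the replicate block Gli2 was -0.0825 and Whrn -0.14. Without 1 library Gli2 ran from -0.15 to 0.23, Whrn from -0.14 to 0.18, Tubb2b from -0.13 to 0.22 and Kcnab1 from -0.29 to 0.0533. The cause was not tested. The P4 depth, 12 and 15 reads in the median member, limits the precision of each change.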

Other observations

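Several families not described above were read at P4. The counts in brackets are those called higher and lower after scaling to reads in peaks, and 40.9% of all members were called higher on the deposited scale. Zinc finger (Zfp) genes had 17 of 28 member peaks called higher and 0 lower (4 and 0; median change 1.52, and 0.15 after that scaling), and genes of microtubule motors and the cytoskeleton 14 of 22 and 0 (2 and 3; 1.82, and 0.46). Insulin, AKT and mTOR signalling had 9 of 15 and 0 (2 and 1; 1.63, and 0.27). Notch pathway genes had 5 of 15 and 0 (0 and 0; 1.18, and -0.07), and solute carriers 21 of 54 (38.9%) and 0 (4 and 14; 0.87, and -0.46). The 5 member peaks of cytochrome P450 genes lay at -2.16 to -0.53, with none called by limma on the deposited scale and all 5 called lower after scaling to reads in peaks.

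At several Tenm4 peaks the P10 libraries were the highest of the 3 ages. An intron peak with 14.3 and 13.4 RPKM at P4 had 32.5 and 73.3 at P10 and 4.33 to 6.36 at P28, and was not called between P4 and P28.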
